A study of Mus musculus with 5 samples.

Results

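Of the HEB regions mapped in double positive thymocytes, 1672 had the lowest scores of their list, 9 or 10, and overlapped no region of open chromatin. They were chosen by 3 criteria: the HEB score, the absence of any shared base pair with a DNaseI region, and a position on chromosomes 1 to 19. They made up 34.7% of the 4815 HEB regions on those chromosomes, and the HEB list held 4930 regions in all. Double positive thymocytes are the immature T cells of the thymus that carry both CD4 and CD8. They came from C57/BL6 mice 4 to 6 weeks old, and the labels give no genotype or treatment. HEB and TCF1 were mapped by chromatin immunoprecipitation and sequencing, and open chromatin by DNase I digestion of nuclei and sequencing. The 3 region lists came from 1 sample each, so no value has an error between animals, and every interval given is a 95% interval for counting error alone.

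HEB, the product of Tcf12, is a basic helix-loop-helix protein of the E protein family, which binds the short E-box motif as a dimer, in thymocytes often with the related factor E2A. TCF1, the product of Tcf7, is an HMG-box factor of the Wnt pathway that is needed for T cell development from its early stages. DNase I cuts where nucleosomes are displaced, as at active promoters and enhancers, and most sites bound by transcription factors are found in such open DNA.

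Each list gave a position and a whole-number score per region, and the unit of the score was not stated. HEB regions were all 201 bp wide and TCF1 regions all 183 bp, whereas the 48320 DNaseI regions had a median width of 315 bp. Positions are mm9 coordinates counted from 1. No genome or annotation of that build was used here, so the regions are given by position, with no gene names, sequences or E-box counts. The number of reads behind each list is unknown, and a region missing from a list may therefore have been too weak to be listed.

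The HEB score and the DNaseI list chose the regions, so both are given as a description. A score of 10 was held by 1640 of the 1672 regions and a score of 9 by 32. The HEB scale had gaps, with no region at scores of 14, 21 or 28, and the first score above the threshold, 11, was held by 631 autosomal regions outside DNaseI regions. On the side of open chromatin, 10 of the 1672 regions had a DNaseI region within 100 bp, at distances of 9 to 62 bp. Just past that limit, 10 HEB regions with scores of 9 or 10 shared between 2 and 48 bp with a DNaseI region. Among all 319 HEB regions of these scores that met open chromatin, 216 lay wholly inside a DNaseI region.

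TCF1 was almost absent from the low-scoring HEB regions outside open chromatin. Only 4 of 1672 met a TCF1 region by 1 bp or more, or 0.239% (Wilson interval 0.0931 to 0.614%). The share over all autosomal HEB regions was 11.8%. HEB regions with scores of 11 or more outside open chromatin met TCF1 in 29 of 1443 cases, or 2.01% (1.40 to 2.87%). The difference of the low-scoring regions to these was -1.77 percentage points. Its Newcombe interval, -2.64 to -1.06 points, covers counting error alone and takes the regions as independent. HEB regions of the same scores inside open chromatin met TCF1 in 59 of 319 cases, or 18.5% (14.6 to 23.1%), and the difference to them was -18.3 points (-22.9 to -14.4). Only 518 of the 3511 autosomal TCF1 regions lay outside DNaseI regions, and the part that this had in the second difference was not tested. Of those 518 TCF1 regions, 4 met a low-scoring HEB region and 29 met a HEB region with a score of 11 or more.

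The 4 regions that met TCF1 all had a HEB score of 10, and the TCF1 regions that met them had scores of 9, 9, 11 and 17 in their own list.

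The first lay on chromosome 3 from 21509273 to 21509473. Its TCF1 region (score 9) fell wholly inside it, with centres 1 bp apart, and the nearest DNaseI region was 23.5 kb away with a score of 9. The second, on chromosome 6 from 61276254 to 61276454, met the TCF1 region with the score of 17 over 158 bp. It lay 1609 bp from a 201 bp wide DNaseI region with a score of 8, the lowest score of that list. No other of the 4 was as close to open chromatin.

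The third, on chromosome 13 from 13937376 to 13937576, again held a whole TCF1 region (score 9), with centres 2 bp apart. DNaseI regions lay 36.4 kb away at the nearest, with a score of 27. The fourth, on chromosome 14 from 49545680 to 49545880, shared 134 bp with its TCF1 region (score 11). No DNaseI region came within 50 kb of it, and the nearest was 140 kb away. In all 4 cases the TCF1 region was itself outside open chromatin, at 1652 bp from a DNaseI region on chromosome 6 and at 23.5 kb or more on the others. None of the 4 had another HEB region within 50 kb. Both centres of each pair were at most 58 bp apart.

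**Figure D1:**
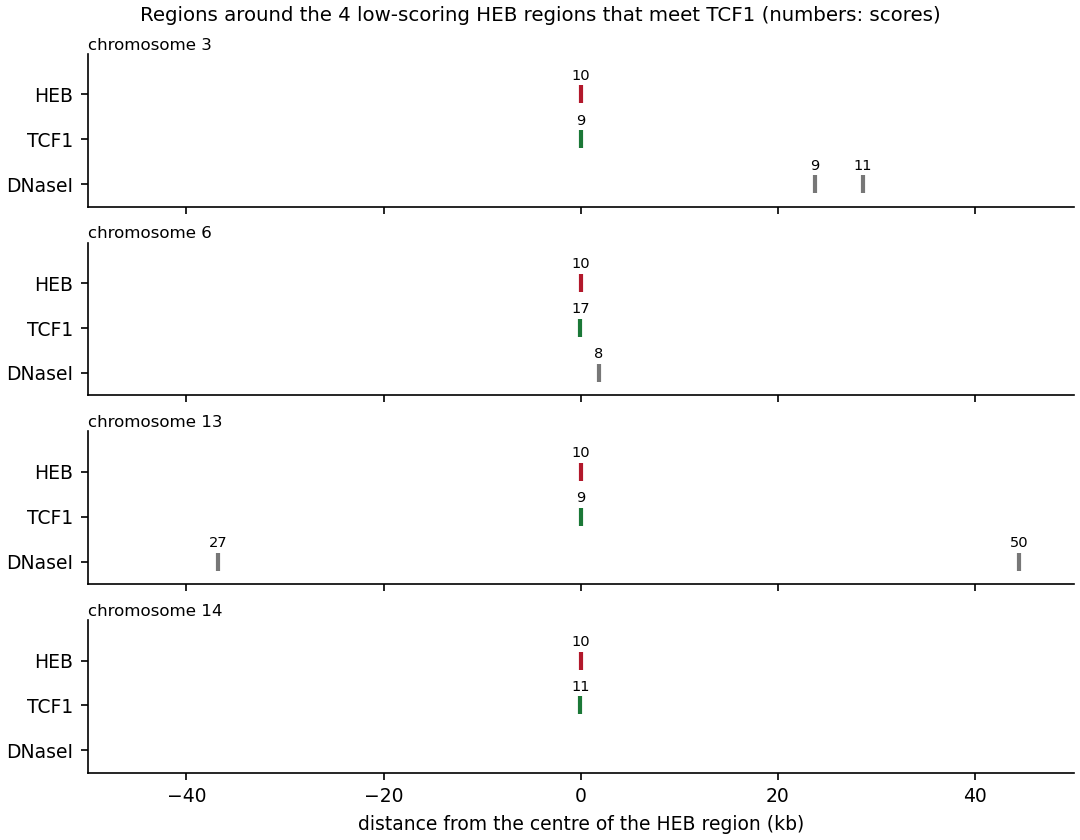
Regions within 50 kb of the 4 low-scoring HEB regions that met TCF1, one panel each. Ticks mark the centre of each listed HEB, TCF1 and DNaseI region by its distance in kb from the centre of the HEB region, and numbers are scores within each list. In each panel 1 HEB and 1 TCF1 region coincide at 0, and between 0 and 2 DNaseI regions are in view.

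Within a wider distance TCF1 was still sparse. A TCF1 region lay within 10 kb of 44 of the 1672 regions, or 2.63% (1.97 to 3.51%), against 80 of 1443, or 5.54% (4.48 to 6.85%), of the higher-scoring HEB regions outside open chromatin. The difference was -2.91 points (-4.38 to -1.53), and the share over all autosomal HEB regions was 20.5%. Those 44 regions had 42 TCF1 regions between them as nearest ones, of which 32, or 76.2%, lay in DNaseI regions. Most TCF1 regions did so in the list as a whole, where only 518 of 3511 autosomal ones lay outside. The highest-scoring of the 42, with a TCF1 score of 48, was on chromosome 1 from 191655000 to 191655182. It was 8413 bp from a HEB region at 191663595 to 191663795 that had 15 DNaseI regions within 50 kb to either side.

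At 50 kb, 13.1% (11.6 to 14.8%) of the low-scoring regions and 14.6% (12.8 to 16.5%) of the higher-scoring ones outside open chromatin had a TCF1 region, where the share over all autosomal HEB regions was 33.2%. The median distance to the nearest TCF1 region was 280 kb (255 to 310 kb) for the low-scoring regions, 392 kb (352 to 435 kb) for the higher-scoring ones outside and 32.4 kb (19.1 to 50.4 kb) for HEB regions of the same scores inside open chromatin. The low-scoring regions therefore had fewer TCF1 regions at or next to them than the higher-scoring ones outside, yet lay nearer to one at the median.

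By their selection the regions lay outside open chromatin, yet they were nearer to it than the span outside DNaseI regions as a whole. Their median distance to the nearest DNaseI region was 40.7 kb (35.8 to 48.5 kb), with quartiles of 10.3 and 205 kb. With only DNaseI regions scoring above that list's median, which also sets which HEB regions are chosen, it was 72.6 kb (62.2 to 83.0 kb). For HEB regions with scores of 11 or more outside open chromatin it was 92.0 kb (74.1 to 112 kb), with quartiles of 13.0 and 432 kb. For the 518 TCF1 regions outside open chromatin it was 4.56 kb (2.89 to 6.65 kb). As a description of the chromosomes themselves, all positions that a 201 bp region could take outside DNaseI regions had a median distance of 117 kb. That value counts assembly gaps and sequence to which reads cannot be assigned, which were not masked.

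The excess over the span, in which assembly gaps were not masked, was at intermediate distances. Within 1 kb of a DNaseI region lay 54 of the 1672 regions, or 3.23% (2.48 to 4.19%), where all positions gave 3.07% and all autosomal HEB regions outside open chromatin gave 3.72%. From 1 to 10 kb lay 353 regions, or 21.1% (19.2 to 23.1%), against 14.7% of positions. From 10 to 100 kb lay 650 regions, or 38.9% (36.6 to 41.2%), against 30.0% of positions. At distances of 100 kb to 1 Mb the 538 regions made up 32.2% (30.0 to 34.5%), against 38.8% of positions. Beyond 1 Mb were 77 regions, or 4.61% (3.70 to 5.72%), against 13.4% of positions.

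The higher-scoring HEB regions outside open chromatin had another profile. Of these, 166 of 1443, or 11.5%, lay beyond 1 Mb, and the difference of the low-scoring ones to them was -6.90 points (-8.87 to -4.99). Within 50 kb of a DNaseI region lay 52.8% (50.4 to 55.2%) of the low-scoring regions and 41.4% of the higher-scoring ones, a difference of 11.4 points (7.86 to 14.8). Within 1 kb the shares were 3.23% and 4.30%, and the interval of their difference, -2.46 to 0.270 points, included 0. Each side of these comparisons was selected on DNaseI overlap, so they describe where the selected regions lay.

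**Figure D2:**
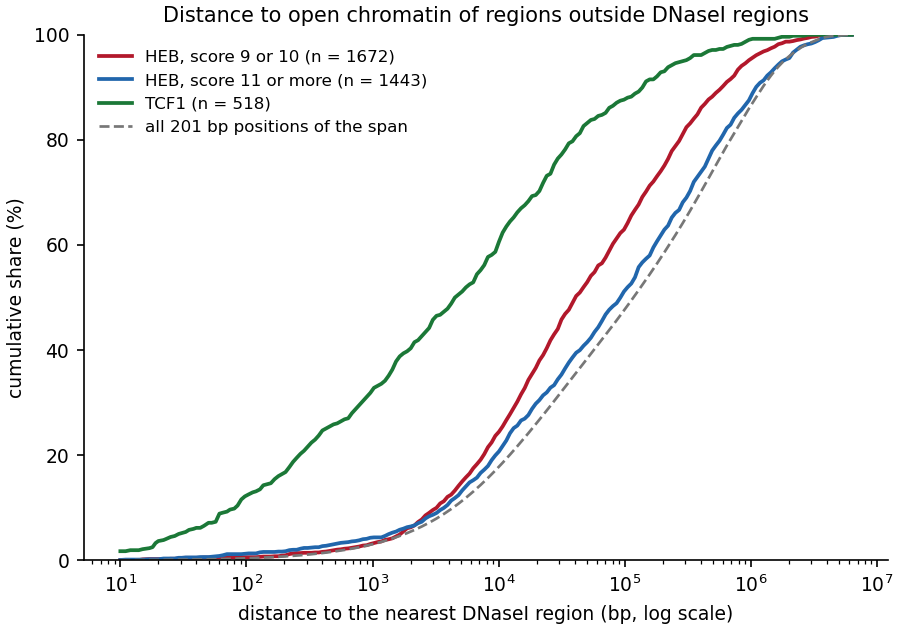
Cumulative share of regions outside DNaseI regions (%) by distance to the nearest DNaseI region (bp, log scale), for low-scoring HEB regions, higher-scoring HEB regions, TCF1 regions, and all positions of the autosomal span. The low-scoring HEB regions run between the TCF1 regions and the higher-scoring HEB regions from about 10 kb outwards, with medians of 40.7 kb, against 4.56 kb for TCF1 and 92.0 kb for the higher-scoring HEB regions.

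The extremes show the range. The closest region, on chromosome 14 from 64919494 to 64919694, was 9 bp from a DNaseI region of 258 bp with a score of 11. On chromosome 15, the region from 77635433 to 77635633 was 15 bp from a DNaseI region of 1007 bp with a score of 55, in a stretch with 30 DNaseI regions within 50 kb to either side. On chromosome 16, the region from 17776886 to 17777086 was also 15 bp away, from a DNaseI region of 251 bp with a score of 11. The open regions next to these 3 ranged from narrow to wide.

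The farthest region, on chromosome 8 from 102778811 to 102779011, was 3.77 Mb from any DNaseI region. The next, on chromosome 5 from 82294925 to 82295125, was 3.72 Mb away, and its nearest HEB region was 860 kb away. The region on chromosome 14 from 110591265 to 110591465 was 3.49 Mb from open chromatin, yet had a HEB region with a score of 11 at 8099 bp. A HEB region could thus have a HEB neighbour in a stretch of several Mb with no listed open region.

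The open regions nearest to the low-scoring HEB regions were much like the DNaseI list as a whole. Their median score was 15 (14 to 16) and their median width 305 bp (288 to 309 bp), and 27.2% were 201 bp wide. For the higher-scoring HEB regions outside open chromatin these values were 15 (15 to 16), 303 bp (270 to 307 bp) and 27.1%. All autosomal DNaseI regions had a median score of 16, a median width of 315 bp and 26.4% at 201 bp. By contrast, the 319 HEB regions of the same scores inside open chromatin lay in DNaseI regions with a median score of 40 and a median width of 626 bp. Those DNaseI regions were taken by overlap, which wide ones meet more readily, and the others by nearness. The part that this had in the contrast was not tested. Within 50 kb to either side, the median number of DNaseI regions was 1 (interval 1 to 1, and 0 with only DNaseI regions scoring above the median) for the low-scoring regions outside, 0 for the higher-scoring ones outside and 10 (9 to 11) for the same scores inside. No DNaseI region at all came within 50 kb of 789 of the 1672, or 47.2% (44.8 to 49.6%).

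The autosomes were then divided into 2382 whole bins of 1 Mb, which held 1652 of the low-scoring regions, and sorted by their number of DNaseI regions. Assembly gaps and sequence to which reads cannot be assigned were not masked here either, and no region of any list can lie there. In the 622 bins with no DNaseI region, the low-scoring HEB regions numbered 0.352 per Mb (exact Poisson interval 0.307 to 0.402). They numbered 0.575 per Mb (0.506 to 0.651) in bins with 1 to 5 DNaseI regions and 0.675 per Mb (0.597 to 0.760) in bins with 6 to 15. At 16 to 30 DNaseI regions per bin the density was 0.975 per Mb (0.875 to 1.08), at 31 to 60 it was 0.960 per Mb (0.861 to 1.07), and above 60 it was 1.05 per Mb (0.919 to 1.20). The class with none was thus below all others, the classes of 1 to 5 and 6 to 15 overlapped in their intervals, and so did the 3 classes from 16 upwards, which lay above the rest.

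The higher-scoring HEB regions outside open chromatin varied less over the same bins. They numbered 0.537 per Mb (0.481 to 0.598) in bins with no DNaseI region and 0.791 per Mb (0.676 to 0.919) in bins with over 60. In the bins with none, the low-scoring regions were therefore fewer than the higher-scoring ones. They were more numerous at 6 to 15, 16 to 30 and 31 to 60 DNaseI regions per bin, and in these 4 classes of bins the intervals did not overlap. At 1 to 5 and above 60 they overlapped. The low-scoring regions were also the larger class over all bins, at a mean of 0.694 per bin against 0.593. The densities were not adjusted for this. Over the bins, counts of low-scoring regions and of DNaseI regions had a Spearman's rho of 0.29, against 0.10 for the higher-scoring regions. Both are descriptions across neighbouring bins of the same lists, and both are weak.

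**Figure D3:**
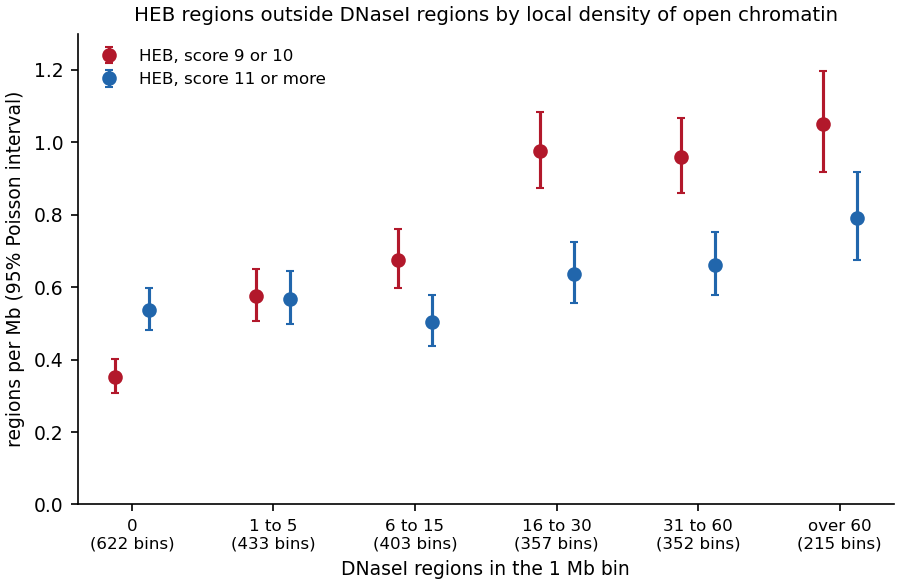
Density of HEB regions outside DNaseI regions (regions per Mb, with 95% Poisson intervals) in 1 Mb bins sorted by their number of DNaseI regions, for scores of 9 or 10 and for scores of 11 or more. The low-scoring regions go from 0.352 per Mb in bins with no DNaseI region to 1.05 per Mb in bins with over 60, and the higher-scoring ones from 0.537 to 0.791 per Mb. Assembly gaps were not masked.

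All 19 autosomes held such regions, at 0.695 per Mb over all (0.662 to 0.729). Chromosome 7 held the most, 140 regions at 0.939 per Mb (0.790 to 1.11), followed in density by chromosome 11 with 107 regions at 0.902 per Mb (0.739 to 1.09) and chromosome 19 with 49 regions at 0.842 per Mb (0.623 to 1.11). Chromosome 3 had the lowest density, 83 regions at 0.533 per Mb (0.425 to 0.661). The highest density was 1.76 times the lowest, while the density of DNaseI regions varied 3.07-fold. Neighbouring chromosomes in this order had overlapping intervals.

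Chromosomes with more open regions also had more of the low-scoring regions. Over the 19 autosomes, their density and that of DNaseI regions had a Pearson's r of 0.66 and a Spearman's rho of 0.59. Without chromosomes 11 and 17, the 2 farthest from the median DNaseI density, these were 0.56 and 0.47. For the higher-scoring HEB regions outside open chromatin the values were -0.09 and -0.07 over all 19 autosomes, and 0.16 and 0.05 without chromosomes 11 and 17, so their sign turned. All densities share the same chromosome lengths, and the 2 HEB classes come from the same library, so these values describe the lists only. As a share of all HEB regions of a chromosome, the low-scoring regions made up between 28.3% (24.1 to 33.1%) on chromosome 2 and 44.1% (36.3 to 52.3%) on chromosome 18.

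**Figure D4:**
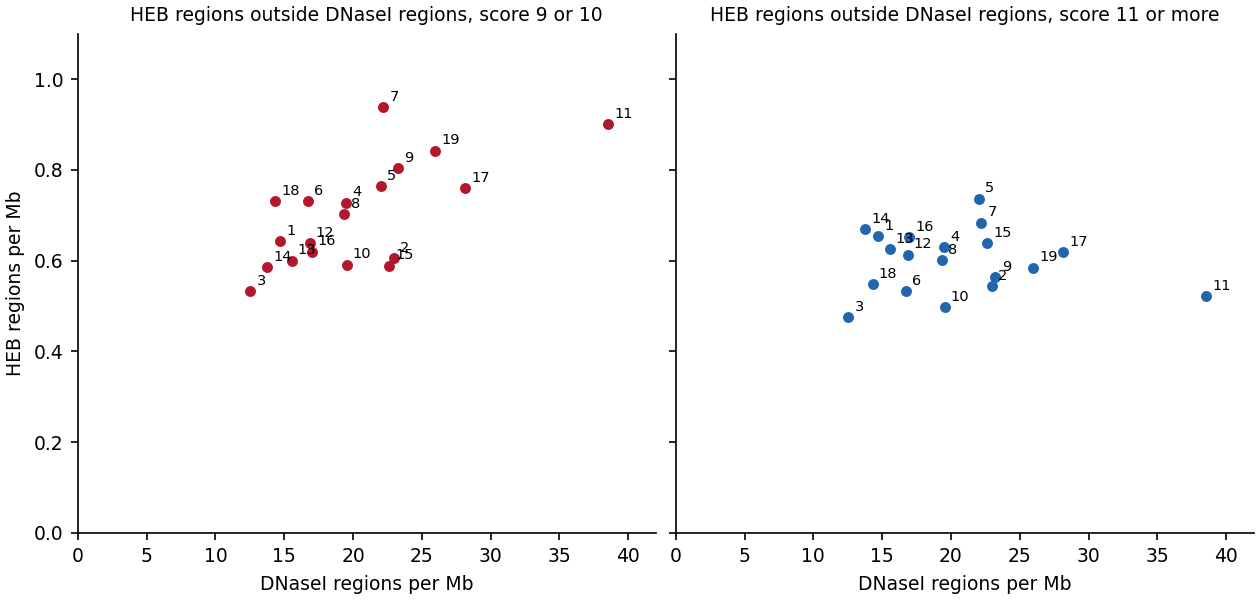
HEB regions outside DNaseI regions per Mb against DNaseI regions per Mb on each of the 19 autosomes (numbered), for scores of 9 or 10 on the left and scores of 11 or more on the right. Low-scoring regions run from 0.533 per Mb on chromosome 3 to 0.939 per Mb on chromosome 7 and are denser on chromosomes with more open regions, and for the higher-scoring ones Pearson's r was -0.09, or 0.16 without chromosomes 11 and 17.

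Mouse chromosomes carry the centromere at the end from which mm9 counts. The first 10% of each span held 9.33% (8.03 to 10.8%) of the low-scoring regions, 11.9% (10.3 to 13.6%) of the higher-scoring ones outside open chromatin and 6.37% (6.15 to 6.59%) of DNaseI regions. The last 10% held 13.8% (12.2 to 15.5%), 12.9% (11.3 to 14.7%) and 17.1% (16.8 to 17.4%) of the same classes. At the last 10% the low-scoring share was thus above an even 10% and below that of DNaseI regions, while at the first 10% its interval included an even spread.

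Few of the low-scoring regions had another HEB region nearby. A HEB region of any score lay within 10 kb of 107 of 1672, or 6.40% (5.32 to 7.68%), where the share over all autosomal HEB regions was 16.4%. The higher-scoring HEB regions outside open chromatin had such a neighbour in 15.5% of cases (13.7 to 17.4%), a difference of -9.05 points (-11.3 to -6.87). HEB regions of the same scores inside open chromatin had one in 16.9% of cases (13.2 to 21.4%), a difference of -10.5 points (-15.2 to -6.60). Within 2 kb, 25 of the 1672 regions, or 1.50% (1.01 to 2.20%), had a HEB neighbour, against 124 of 1443, or 8.59% (7.25 to 10.2%), of the higher-scoring ones outside. Over all autosomal HEB regions that share was 6.98%.

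Within 500 bp, 1 of the 1672 had a HEB neighbour, against 24 of the 1443 and 1.41% of all autosomal HEB regions. Of the 107 with a neighbour within 10 kb, the nearest one was another low-scoring region outside open chromatin in 50 cases, a higher-scoring one outside in 40, a higher-scoring one inside in 15 and a low-scoring one inside in 2. In the HEB list as a whole these 4 classes held 34.7, 30.0, 28.7 and 6.63% of autosomal regions. Nearest neighbours inside open chromatin were therefore 17 of 107, and 35.3% of the list was inside. These 2 shares cannot be compared directly, because a HEB neighbour inside open chromatin within 10 kb needs a DNaseI region about that near. Only 407 of the 1672 had a DNaseI region within 10 kb. Of the 107, 4 lay up to 1 kb and 34 lay 1 to 10 kb from one.

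The spacing of the regions among themselves depends on their density, 0.695 per Mb, and was not set beside that of an even spread. Consecutive ones lay a median of 840 kb apart, and 26 consecutive pairs were within 10 kb of each other. The closest pair was on chromosome 1, at 135982179 to 135982379 and 135983037 to 135983237, 658 bp apart. The longest stretch between consecutive ones ran over 16.3 Mb of chromosome 3, from 52211888 to 68523703. Of 1586 windows of 100 kb that held any, 1507 held 1, 73 held 2, 5 held 3 and 1 held 4. Counts per 1 Mb bin had a variance of 1.20 times their mean, against 1.28 for the higher-scoring HEB regions outside open chromatin and 38.0 for DNaseI regions.

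The window richest in low-scoring regions lay on chromosome 11 from 81500001 to 81600000. Its 4 regions were at 81518652 to 81518852, 81537140 to 81537340, 81581286 to 81581486 and 81585099 to 81585299, all with a score of 10. The window held no other HEB region, no TCF1 region and no DNaseI region, and the nearest open region was 70.5 to 137 kb from them. The whole Mb around it, from 81000001 to 82000000, held 6 low-scoring regions, no other HEB region outside open chromatin and 5 DNaseI regions.

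The other 4 windows named by rank held 3 low-scoring regions each and differed in their surroundings. That on chromosome 4 from 127300001 to 127400000 held no DNaseI region and 1 HEB region with a score of 11 or more, and its regions were 227 to 267 kb from open chromatin. That on chromosome 14 from 64600001 to 64700000 held 2 DNaseI regions, and its low-scoring regions were 8.14 to 43.9 kb from the nearest open one. On chromosome 7, the window from 25300001 to 25400000 held 9 DNaseI regions and a single TCF1 region, and its low-scoring regions were 1.71 to 7.85 kb from open chromatin. The last, on chromosome 11 from 116800001 to 116900000, held 10 DNaseI regions and 1 HEB region inside open chromatin. Its low-scoring regions had their nearest DNaseI region at 2.31 to 19.3 kb. Groups of low-scoring regions thus occurred both in stretches with no open region and between many of them.

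The position of the low-scoring regions at the bottom of a gradient was then described over all 3115 autosomal HEB regions outside open chromatin. The share that met TCF1 was 0.244% (0.0949 to 0.625%) at a score of 10, 0.792% (0.339 to 1.84%) at 11 and 1.03% (0.402 to 2.62%) at 12 to 13. It was 3.23% (1.26 to 8.00%) at 15 to 16, 3.85% (1.77 to 8.14%) at 17 to 20, 5% (2.15 to 11.2%) at 22 to 30 and 11.4% (4.95 to 24.0%) among the 44 regions at 31 to 70. Each of these shares rests on 4 to 6 regions. Regions next to each other in this order had overlapping intervals, including those just inside and just outside the threshold.

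HEB neighbours and the distance from open chromatin went the same way. The share with another HEB region within 10 kb was 6.40% (5.32 to 7.69%) at a score of 10, 9.83% (7.74 to 12.4%) at 11, 14.9% (11.7 to 18.8%) at 12 to 13, 21.8% (15.4 to 29.8%) at 15 to 16, 26.9% (20.6 to 34.4%) at 17 to 20 and 38.6% (25.7 to 53.4%) at 31 to 70, with a lower value of 17% (10.9 to 25.5%) at 22 to 30. The median distance to the nearest DNaseI region was 39.4 kb (35.2 to 47.4 kb) at a score of 10, 56.4 kb (41.8 to 67.1 kb) at 11, 110 kb (70.0 to 149 kb) at 12 to 13 and 251 kb (113 to 560 kb) at 31 to 70. Outside open chromatin, then, HEB regions with higher scores lay farther from DNaseI regions. They also met TCF1 and had another HEB region within 10 kb more often. Exceptions were the lower share of HEB neighbours at 22 to 30 and the few regions at a score of 9. All HEB regions in DNaseI regions were left out of this order. These were 1381 with scores of 11 or more, beside 1443 outside, and 319 with scores of 9 or 10, beside 1672 outside. Higher scores were thus more often in open chromatin in the list as a whole.

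The 32 regions with a score of 9 were too few to place in this order. Their median distance to a DNaseI region was 115 kb (29.1 to 250 kb), an interval that takes in the medians at scores of 10 to 30. None of them met TCF1, which with 32 regions allows a Wilson upper limit of 10.7%, and 2 had another HEB region within 10 kb.

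**Figure D5:**
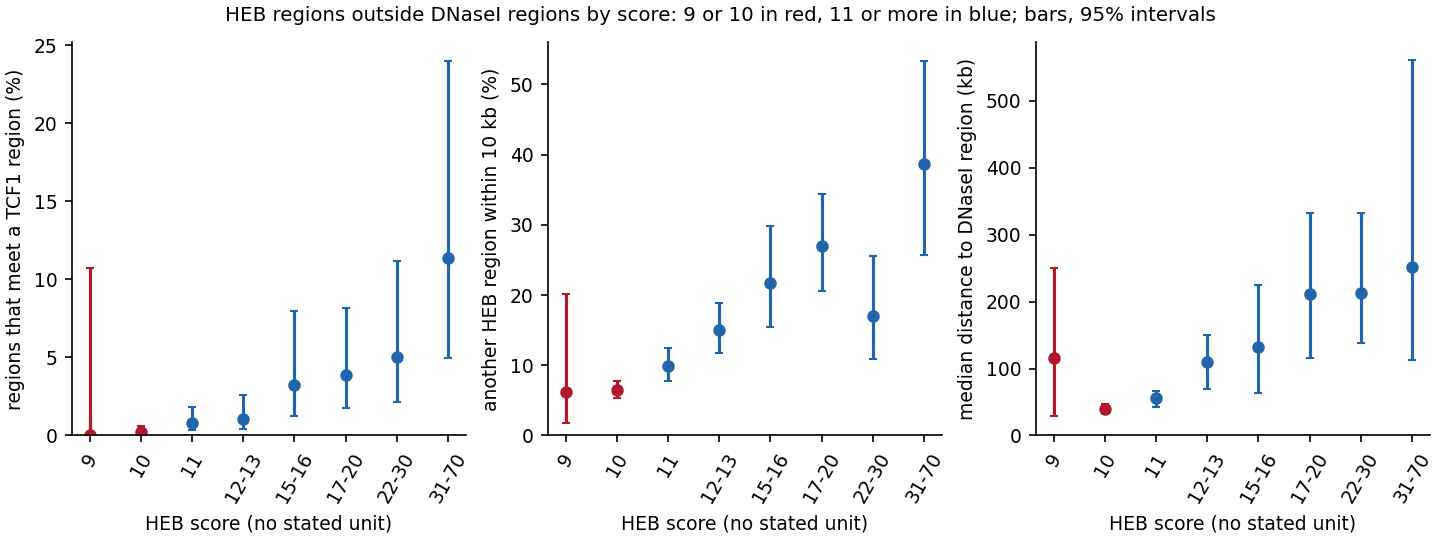
HEB regions outside DNaseI regions by HEB score (no stated unit), with 95% intervals: the share that met TCF1 (%), the share with another HEB region within 10 kb (%), and the median distance to the nearest DNaseI region (kb). Regions with scores of 9 or 10 are in red; from a score of 10 to scores of 31 to 70 the values run from 0.244 to 11.4%, from 6.40 to 38.6% and from 39.4 to 251 kb.

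Distance from open chromatin also sorted the low-scoring regions themselves. A TCF1 region within 10 kb was found for 6 of the 54 regions within 1 kb of a DNaseI region (11.1%), 33 of 353 at 1 to 10 kb (9.35%), 3 of 650 at 10 to 100 kb (0.462%), 2 of 538 at 100 kb to 1 Mb (0.372%) and none of 77 beyond 1 Mb. As TCF1 regions were mostly found inside open chromatin, the distances to TCF1 and to DNaseI regions are not independent. HEB neighbours within 10 kb did not fall in the same way. They were found for 7.41% of the regions within 1 kb of open chromatin, 9.63% at 1 to 10 kb, 3.23% at 10 to 100 kb, 7.62% at 100 kb to 1 Mb and 9.09% beyond 1 Mb, the last from 7 of 77 regions. The lowest of these shares was at 10 to 100 kb, but no intervals were computed for them, and that within 1 kb rests on 4 of 54 regions.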

How the data were processed

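The lists come from 1 sample each of DNaseI, HEB and TCF1, with SOLiD sequencing, per the labels' protocols. The H3K9me3 and H3K27ac samples were not analysed here. The score deposited by the authors is a whole number per region whose unit is not given, so it was used only within its list. HOMER 6.1 and mm9 appear, with no step stated, per the submitters' processing notes. The aligner, the calling thresholds and any control library were not given in the sources used here. Depth is unknown. Bound sites and background cannot be told apart among low-scoring regions.

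Starts were moved to 1-based positions. Distances run from edge to edge, with 0 where at least 1 bp is shared. Shares have Wilson intervals, their differences Newcombe intervals, medians intervals from order statistics and densities exact Poisson intervals. With 1 sample per assay no test was run. Regions are not replicates and neighbouring ones are not independent. Chromosome spans run from the first to the last listed region, 2.41 Gb in all. Regions named were the HEB regions that met TCF1, the 5 windows of 100 kb with the most (ties by position), the 3 closest to and the 3 farthest from a DNaseI region, and the highest-scoring TCF1 region within 10 kb; other positions, and the 1 Mb bins and score classes, were chosen after their values were seen. The selection rule and all measures were chosen with earlier results of these data known. The distance and interval functions were tested on simulated data. Python 3.11.15, numpy 2.4.6, scipy 1.17.1 and pandas 2.3.3 were used.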

Additional observations from a re-analysis of the deposited data

How the results depend on the processing

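Other scores, overlap rules, distances, DNaseI lists and chromosomes were tried, and 43 of 62 values stayed inside the interval of the reported value (within 1.5 times for the number of regions, of the same sign for the correlation over chromosomes). With scores of 9 alone, 32 regions were left: 0% met TCF1, 0% had one within 10 kb, 0% had another such region within 10 kb, the median distance to a DNaseI region was 115430 bp and the median number of DNaseI regions within 50 kb was 0. With scores of 9 to 11, another such region lay within 10 kb of 4.43%, against 3.11%. With DNaseI scores above that list's median, the median distance was 72554 bp and the median number within 50 kb was 0. That list is shorter by construction. With TCF1 scores above the median, 0.0598% met TCF1. With at least 500 bp to open chromatin, 1.34% were within 1 kb, by construction. Narrower and wider limits moved the shares by construction. TCF1 lay within 2 kb of 0.538% and within 50 kb of 13.1%, another HEB region within 2 kb of 1.50% and within 50 kb of 23.0%, and another such region within 2 kb of 0.718% and within 50 kb of 10.5%. Within 500 kb the median number of DNaseI regions was 19. In bins of 500 kb, a size chosen after seeing the data, those without a DNaseI region held 0.407 per Mb. Adding X and Y gave 1696 regions. Leaving out chromosome 7 kept every share and median it was tried on inside its interval. The E-box counts were not run without an mm9 genome. No region has a depth behind it, so the lists cannot show what was too weak to be listed.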
